A study of Danio rerio with 2 samples.

Results

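Neurotransmitter receptor subunits were compared between GFP(+) and GFP(−) cells of ppv3b:GFP zebrafish larvae, and of 17668 genes with values, 70 carried a symbol with 1 of the prefixes of the AMPA, kainate, NMDA, delta and metabotropic glutamate receptors, the GABA, glycine, acetylcholine, serotonin and dopamine receptors or the P2X receptors. Of these 70, 63 were receptor subunit genes. The other 7 share only the letters, being 5 genes of the HTRA peptidases and 2 genes of GRID2IP, a scaffold protein that binds a delta receptor, and they are given apart. The rule used symbols and no measured value.

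The GFP(+) cells, which the labels call hair cells (HCs), and the GFP(−) cells, which they call non-hair cells, were sorted from larvae at 5 dpf and gave 1 library each. Both carried the genotype Ppv3b-GFP. The transgene marks HCs predominantly but not only, so that the GFP(+) library can hold other GFP(+) cells, and the GFP(−) library holds the remaining cells of the larva, brain, retina and muscle among them. The study made the comparison to extend its work on gene regulation in mouse HCs to a second species. Values are quantile-normalized reads per gene, which the authors set to at least 20, and both libraries sum to 19035170.5, so that the depth of each library is unknown. As each population gave a single library, the differences below are unreplicated and could not be tested. A gene is counted as higher or lower when its ratio reached 3-fold.

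A receptor at a synapse turns released transmitter into a current or a second messenger in the receiving cell. Ionotropic receptors are channels built of several subunits, and metabotropic receptors act through G proteins. HCs are the sending side of a ribbon synapse that releases glutamate onto afferent neurons, whose AMPA receptors detect it. They also receive contacts of efferent neurons, and the acetylcholine released there acts on a nicotinic receptor built of the α9 and α10 subunits. Calcium entering through that receptor opens a potassium channel of the SK type, encoded by KCNN2, and inhibits the HC.

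The low end of the deposited values limits what can be read from these genes. GFP(+) values of 48 or less were held by 3329 genes, 18.8% of all, but by 43 of the 63 receptor genes, 68.3%. Such a value is either 20, for 11 of the 43, or follows from the gene's GFP(−) value along 1 rising curve, so that it cannot be read as a measurement of its own. These 43 genes are therefore described by their GFP(−) value and by a bound computed against 48. Of them, 26 had a GFP(−) value above 48 and 17 did not, and for the 17 no direction can be given. The filter of the table acts at the other end as well. All 1026 genes with a GFP(−) value below 30 had a GFP(+) value of 82 or more. A gene just below 30 thus had to be at least 2.73-fold higher to be in the table at all. For a gene nearer the floor the required ratio was larger. The 6 receptor genes in this range had GFP(−) values of 25.5 or less, for which 82 is already past 3-fold. In the mirror direction, all 5285 genes with a GFP(+) value below 82 had a GFP(−) value of 30 or more. Such genes had passed the filter only through the GFP(−) library. Of the 63 receptor genes, 46 were among them, the 43 at 48 or less included.

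Of the 63 receptor genes, 9 (14.3%) were at least 3-fold higher in the GFP(+) library, against 16.9% of all genes. By the deposited values 8 (12.7%) were at least 3-fold lower, against 16.4% of all genes, and with GFP(+) values of up to 48 set to 48 this was so for 5 (7.94%), against 14.6%. Neither share was above that of all genes. All 8 of the lower genes had a GFP(+) value of at most 48 and had passed the filter only through the GFP(−) library. Of the 9 genes that were higher, 6 had a GFP(−) value below 30 and passed the filter only through GFP(+) cells. That these 6 passed 3-fold was fixed by the filter and is no result of its own. The other 3 (CHRNE, 1 GRIK1 gene and gabrb1) had higher GFP(−) values. With a pseudocount of 20 added to both values, 3 of the 9 (CHRNA9, DRD5 and CHRM3) were still past 3-fold. All 3 were among the 6 that had passed the filter only through GFP(+) cells. CHRNE, GRIK1 and gabrb1 did not stay past 3-fold with this pseudocount. The median log2 ratio of the 63 genes was −0.63, and −0.09 with the bound of 48, where the medians over all genes were −0.10 and 0.12. Over the 12 receptor genes with both values above 48, the median was −0.33. Values were low in general. Both values lay under 186, the median of each library, for 53 of the 63 genes, and the values were not corrected for the length of the transcript, so that levels are compared here only within a gene.

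**Figure D1:**
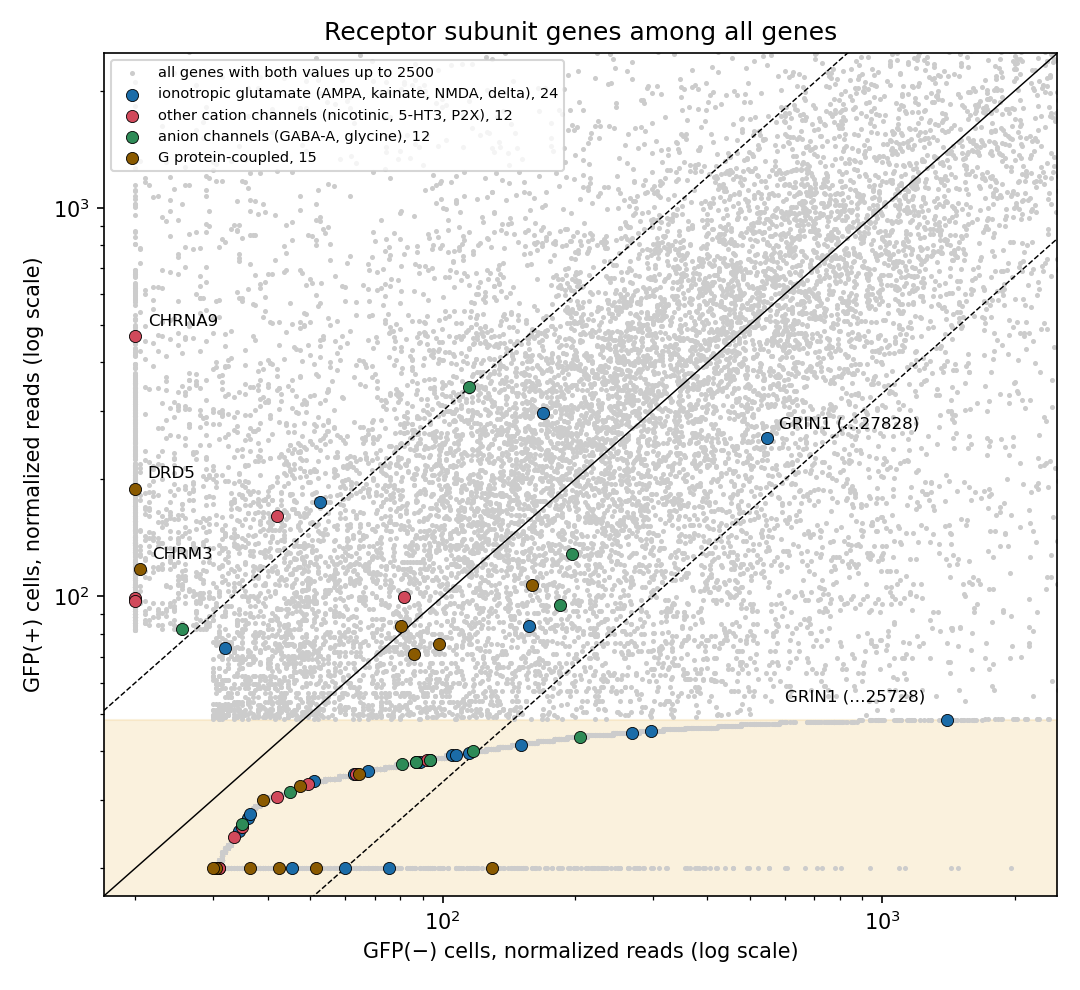
Normalized reads in the GFP(+) library (y axis, log scale) against GFP(−) cells (x axis, log scale), with 1 point per gene, receptor subunit genes coloured by kind and other genes in grey. The axes cover the range of the receptor genes, the solid line marks equal values, the dashed lines mark 3-fold, and the shaded band holds GFP(+) values of 48 or less, where 43 of the 63 receptor genes lie on the floor of 20 or on 1 curve.

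Nicotinic receptors are cation channels opened by acetylcholine. CHRNA9 (ENSDARG00000054680), the α9 subunit of the efferent synapse on HCs, had 467.0 normalized reads in the GFP(+) library and was at the floor of 20 in the GFP(−) library. It was thus at least 23.4-fold higher, the largest ratio of the 63 genes and rank 310 among the ratios of all 17668 genes. CHRNA9 had passed the filter of the table only through the GFP(+) library, which fixed its passing of 3-fold. Its partner subunit CHRNA10 was not analysed here. KCNN2 (ENSDARG00000014939), the SK channel, had 79.5 normalized reads in the GFP(+) library and 38 in the GFP(−) library, a 2.09-fold difference that did not pass 3-fold. chrna11 (ENSDARG00000037427), a further nicotinic α subunit, had 99.0 normalized reads in the GFP(+) library against the floor of 20 in the GFP(−) library and was at least 4.95-fold higher.

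CHRNE (ENSDARG00000034307), the ε subunit of the receptor of the adult neuromuscular junction in mammals, was 3.83-fold higher, with 161.0 normalized reads in the GFP(+) library and 42.0 in the GFP(−) library. Of the other subunits of the muscle receptor, CHRNA1 and CHRNB1 had values, and CHRND and CHRNG were not analysed here. CHRNA1 (ENSDARG00000009021) had a GFP(+) value of at most 48 and 92.0 normalized reads in the GFP(−) library, a difference of at least 1.92-fold, and CHRNB1 (ENSDARG00000069660) was at 25.5 and 35, both in the range where no direction can be given. Among 17 genes of a list of skeletal muscle markers, 1 (5.88%, against 16.9% of all genes) was at least 3-fold higher in the GFP(+) library. At least 3-fold lower were 2 (11.8%, against 16.4% of all genes). By the deposited values 6 of the 17 were higher and 11 lower, but 6 of the lower ones had a GFP(+) value of at most 48. For 3 of these 6 the GFP(−) value was at most 48 too, which gives no direction. Among the genes above 48 in the GFP(+) library, 6 were higher and 5 lower, with a median log2 ratio of 0.06. The values of the list summed to 4486.0 in GFP(+) and 3541.0 in the GFP(−) library. The highest of its ratios was that of myhz2 (ENSDARG00000012944), a myosin heavy chain, at 5.08-fold, with 1458.5 in the GFP(+) and 287.0 in the GFP(−) library. Without myhz2 the sum of the list would not be higher in the GFP(+) library. None of the 17 was at the floor in the GFP(−) library (0 genes) and 1 was in the GFP(+) library. The part of muscle RNA in the value of CHRNE was not tested.

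The remaining nicotinic genes encode subunits of neuronal receptors. CHRNB2 (ENSDARG00000017790), the common β subunit of the brain, had 99.5 normalized reads in the GFP(+) library and 81.5 in the GFP(−) library, a log2 ratio of 0.29. CHRNA5, CHRNA6 and CHRNB3 had GFP(+) values of at most 48, and their GFP(−) values were 63.5, 33.5 and 49.5. In all, 3 of the 9 nicotinic genes were at least 3-fold higher (33.3%, against 16.9% of all genes), and none was at least 3-fold lower (0 genes, against 16.4%). Of these 3, CHRNA9 and chrna11 had passed the filter of the table only through the GFP(+) library.

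The other receptors with acetylcholine as their ligand, the muscarinic receptors, act through G proteins, and 2 genes were found. CHRM3 (ENSDARG00000071091), which couples to phospholipase C, had 117.5 normalized reads in the GFP(+) library and 20.5 in the GFP(−) library and was 5.73-fold higher. That CHRM3 passed 3-fold was fixed by the filter of the table, which it had passed only through the GFP(+) library. CHRM4 (ENSDARG00000069254) was at the floor in the GFP(+) library and at 30.5 in the GFP(−) library, which gives no direction.

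Most receptors for monoamines were not analysed here. Of 21 identifiers named for a serotonin receptor, 2 had values, and of 12 named for a dopamine receptor, 0 had. DRD5 (ENSDARG00000090669), a dopamine receptor that raises cyclic AMP, was named by its deposited symbol only. It was the only dopamine receptor gene found and had 189.5 normalized reads in the GFP(+) library. It was at the floor of 20 in the GFP(−) library and thus at least 9.47-fold higher, the second-ranked ratio of the 63 genes. HTR3B (ENSDARG00000061749) encodes a subunit of the only serotonin receptor that is a channel, and it had 97.5 normalized reads in the GFP(+) library against the floor of 20 in the GFP(−) library, at least 4.88-fold higher. Both DRD5 and HTR3B had passed the filter of the table only through the GFP(+) library, which fixed their passing of 3-fold. HTR2B and htr2cl1, both of the G protein-coupled kind, were at or under 48 in both populations. The same held for p2rx1, at 30.5 and 42 in the GFP(+) and GFP(−) libraries, and for P2RX2, at 20 and 31, which encode channels opened by ATP.

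**Figure D2:**
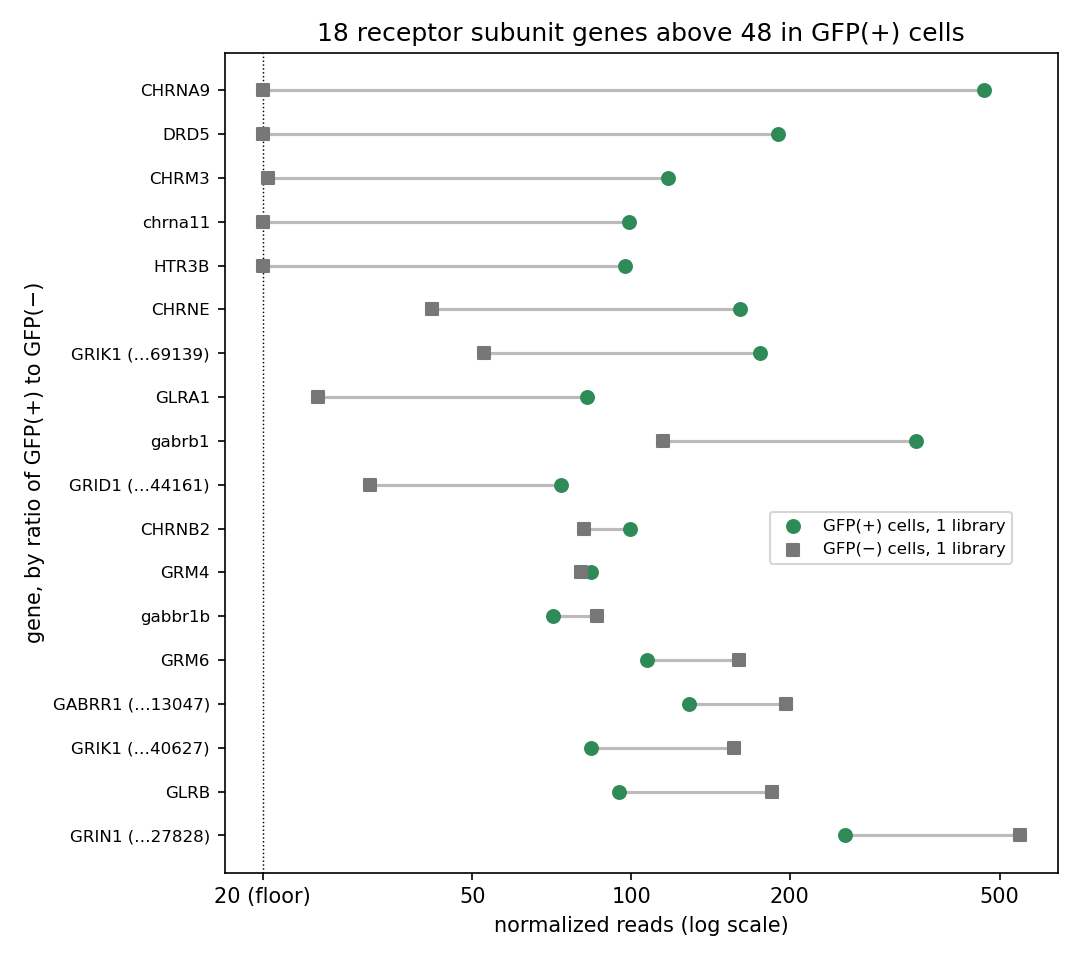
Normalized reads (x axis, log scale) of 18 receptor subunit genes with a GFP(+) value above 48, ordered by ratio, with a circle for the GFP(+) library and a square for the GFP(−) library. CHRNA9, DRD5, chrna11 and HTR3B sit on the floor of 20 in the GFP(−) library, and the 6 genes from gabbr1b to GRIN1 are lower in the GFP(+) library. Digits in parentheses end the Ensembl identifier of genes that share a symbol.

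AMPA receptors carry most of the fast excitatory current at glutamate synapses, on the afferent neurons beneath HCs and in the brain. All 8 AMPA receptor genes found had a GFP(+) value of at most 48, against GFP(−) values of 63.0 to 298.0. With such GFP(+) values, all 8 had passed the filter of the table only through the GFP(−) library. Both GRIA2 genes, for the subunit that limits the entry of calcium, stood farthest apart. They had 298.0 (ENSDARG00000052765) and 270.0 (ENSDARG00000070173) normalized reads in the GFP(−) library and were at least 6.21-fold and 5.63-fold lower in the GFP(+) library. Of the pair of GRIA3 genes, ENSDARG00000032737 was at least 3.15-fold lower, with 151.0 in the GFP(−) library, and ENSDARG00000037498 at least 1.31-fold lower, with 63.0. The bounds for both GRIA1 genes, GRIA4 and gria4a lay between 1.41-fold and 2.23-fold. The median of the bounds over the 8 genes was −1.14 on the log2 scale, where the same median over all genes was 0.12. All genes include many that had passed the filter through the GFP(+) library, so that these medians do not cover like sets.

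NMDA receptors need a subunit from GRIN1 together with GRIN2 subunits. GRIN1 (ENSDARG00000025728) had 1403.0 normalized reads in the GFP(−) library, the highest GFP(−) value of the 63 genes, and a GFP(+) value of 48, so that it was at least 29.2-fold lower. The second GRIN1 gene (ENSDARG00000027828) had 255.0 normalized reads in the GFP(+) library and 545.5 in the GFP(−) library and was 2.14-fold lower. The 2 genes thus shared a direction and differed by at least 3.77 in their log2 ratios. All 7 GRIN2 genes were at 48 or less in the GFP(+) library. Their GFP(−) values ran from 31.0 for a GRIN2C gene to 115.0 for grin2ab, whose bound was 2.40-fold. By the deposited values the GRIN2B gene ENSDARG00000079348 was 3.0-fold lower, at 20 against 60, but its bound was 1.25-fold.

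Kainate receptors form a further class of glutamate-gated channels, and their genes differed. GRIK1 ENSDARG00000069139 was 3.34-fold higher, with 175.5 normalized reads in the GFP(+) library and 52.5 in the GFP(−) library. Its co-orthologue ENSDARG00000040627 had 84.0 in the GFP(+) library and 157.0 in the GFP(−) library and was 1.87-fold lower. All 4 of these values lay above 48, and the log2 ratios differed by 2.64. With the pair summed, the log2 ratio was 0.31. GRIK5 was at the floor in the GFP(+) library and at 75.5 in the GFP(−) library, at least 1.57-fold lower, and GRIK4 gave no direction.

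The delta receptors share the sequence of glutamate receptors but bind cerebellins and glycine or D-serine. GRID1 ENSDARG00000044161 had 73.5 normalized reads in the GFP(+) library and 32.0 in the GFP(−) library, a 2.30-fold difference and the highest ratio among the genes that did not pass 3-fold. The second GRID1 gene (ENSDARG00000074583) was at the floor in the GFP(+) library and at 45.5 in the GFP(−) library. Its log2 ratio was 2.39 below that of the first by the deposited values, but 1.12 with the bound of 48. Over the 24 genes of the AMPA, kainate, NMDA and delta families, 1 was at least 3-fold higher (4.17%, against 16.9% of all genes) and 4 were at least 3-fold lower with the bound of 48 (16.7%, near the 14.6% of all genes).

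Metabotropic glutamate receptors tune release and excitability through G proteins. Of their 8 genes, none passed 3-fold in either direction with the bound of 48 (0 higher and 0 lower, against 16.9% and 14.6% of all genes). GRM4 (ENSDARG00000040156) had 84.0 normalized reads in the GFP(+) library and 80.5 in the GFP(−) library. GRM6 (ENSDARG00000025671), the glutamate receptor of ON bipolar cells in the retina, had 107.0 in the GFP(+) library and 160.0 in the GFP(−) library. For both genes the populations lay within 1.5-fold of each other. Of the rest, a GRM2 gene (ENSDARG00000007195) had the highest GFP(−) value, 129.5, and was at least 2.70-fold lower, whereas the other GRM2 gene, GRM3 and both GRM8 genes had GFP(−) values of 36.5 to 64.5.

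GABA and glycine open anion channels that mostly inhibit mature neurons. Of the 10 GABA-A receptor genes, gabrb1 (ENSDARG00000076127), a β subunit, was just past the threshold at 3.01-fold, with 346.5 normalized reads in the GFP(+) library and 115.0 in the GFP(−) library. GABRR1 ENSDARG00000013047, a ρ subunit as found in the retina, had 128.5 in the GFP(+) library and 197.0 in the GFP(−) library. A further 7 were at 48 or less in the GFP(+) library. Their GFP(−) values ran from 35 for GABRA6 to 117.0 for GABRD, the δ subunit of receptors outside synapses, with a bound of 2.44-fold.

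The glycine receptor genes lay on opposite sides of equal values, 1 of them past 3-fold. GLRA1 (ENSDARG00000012019), an α subunit that binds glycine, was 3.24-fold higher, with 82.5 normalized reads in the GFP(+) library and 25.5 in the GFP(−) library. GLRB (ENSDARG00000052769), the β subunit that ties the receptor to gephyrin, had 95.0 in the GFP(+) library and 185.0 in the GFP(−) library and was 1.95-fold lower. Gephyrin itself (GPHN, ENSDARG00000089076) had 117.0 and 126.5. The GFP(+) value of GLRA1 lay next to the 82 normalized reads that the filter required of a gene with so low a GFP(−) value. The metabotropic GABA receptor was represented by gabbr1b, with 71.0 in the GFP(+) library and 86.0 in the GFP(−) library, and by GABBR1, which was at 48 or less in both.

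**Figure D3:**
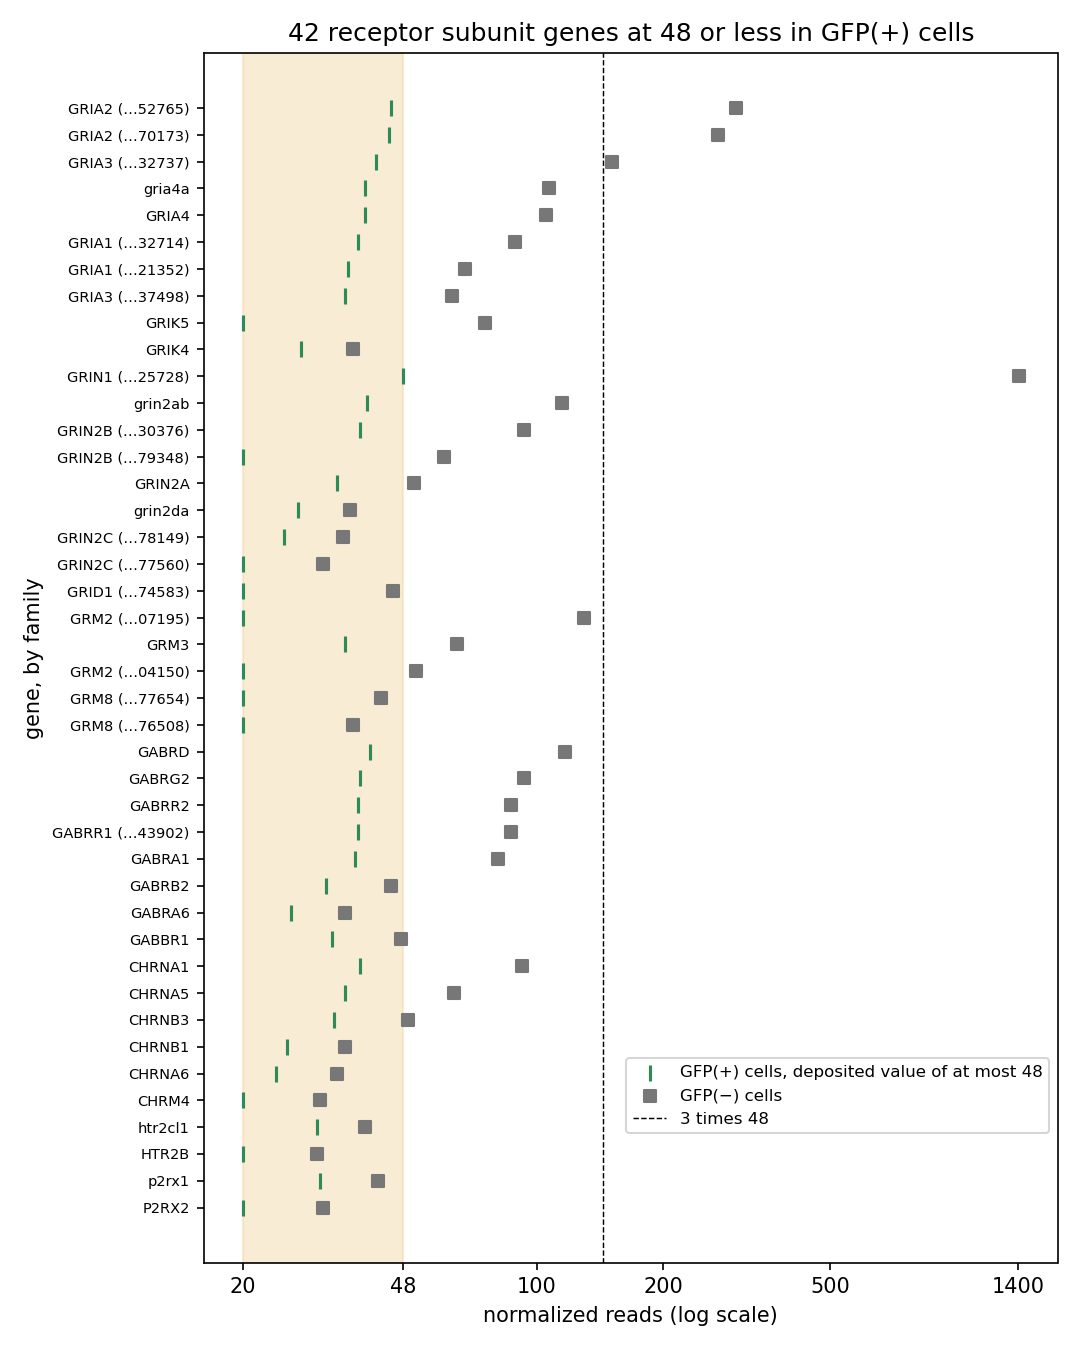
Normalized reads (x axis, log scale) of 42 receptor subunit genes with a GFP(+) value of 48 or less, grouped by family, with a bar for GFP(+) cells and a square for GFP(−) cells. Right of the dashed line at 3 times 48, GRIA2, GRIA3 and GRIN1 genes are at least 3-fold lower whatever the GFP(+) value under 48, and 17 squares lie inside the shaded range, where no direction can be given.

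Over all genes, 16.9% were at least 3-fold higher in the GFP(+) library and 16.4% at least 3-fold lower, or 14.6% with the bound of 48. Of 15 neuronal marker genes, 9 (60%) were at least 3-fold lower in the GFP(+) library and none was higher by 3-fold (0 genes). The neuronal list summed to 1257.0 normalized reads in the GFP(+) library and 8468.5 in the GFP(−) library. Of 13 photoreceptor genes, 11 were at least 3-fold lower with the bound of 48, with sums of 1010.5 in GFP(+) and 35431.5 in the GFP(−) library. Of 9 glial genes, 5 were at least 3-fold lower, with sums of 1695.0 and 8872.0. No gene of these 3 lists was at the floor in the GFP(+) library (0 of each), although 4, 5 and 4 of them were at 48 or less. In bulk libraries, fewer neurons and less receptor RNA per cell cannot be told apart, and the part of these cell types in the values of the receptor genes that were lower was not tested. Of 17 HC marker genes, 16 (94.1%) were at least 3-fold higher and 1, cabp2a, was 3.08-fold lower. OTOF (ENSDARG00000020581) had 9574.0 normalized reads in the GFP(+) library and 334.5 in the GFP(−) library. In the GFP(−) library 2 (ATOH1 and tmie) were at the floor, and TMC1, GFI1, lhfpl5b, LHFPL5 and a TMC2 gene were below 30. All of these low genes had passed the filter of the table only through the GFP(+) library. All 7 superficial epidermis genes were at least 3-fold higher too, with sums of 1577520 and 110570, and of 9 leukocyte genes 1 was higher and 7 were lower. The part of epidermal RNA in the higher receptor values was not tested.

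Zebrafish keep pairs of genes from an ancient genome duplication, and 14 base symbols were held by 2 receptor genes each. Both members of the pair had a GFP(+) value of 48 or less for 9 of the 14, and both were above 48 for 1, GRIK1. Log2 ratios differed by 2 or more in 3 pairs, GRIN1, GRIK1 and GRID1, by the deposited values. With the bound of 48, GRID1 differed by 1.12, which leaves GRIN1 and GRIK1. Similar pairs can share reads that the counting left out or split, so that values of such genes are less certain than their decimals show.

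Genes that assemble, anchor or serve receptors were described from 4 lists with 94 symbols, which gave 99 genes. Of these, 7 (7.07%) were at least 3-fold higher in the GFP(+) library and 25 (25.3%) at least 3-fold lower, or 21 (21.2%) with the bound of 48. The shares over all genes were 16.9%, 16.4% and 14.6%. The higher genes belonged to 2 of the lists, the scaffolds and the transporters. Among the transporters, slc6a11a and slc17a9a had to be past 3-fold to pass the filter of the table.

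Of the 24 auxiliary and assembly genes, none was at least 3-fold higher (0 genes, against 16.9% of all genes). With the bound of 48, 3 (12.5%, against 14.6% of all genes) were at least 3-fold lower. They were OLFM1 (ENSDARG00000014053), with 57 normalized reads in the GFP(+) library and 619.0 in the GFP(−) library, shisa7b (at least 5.18-fold) and KCTD12 (at least 3.35-fold), whose product joins GABA-B receptors. RIC3, which helps nicotinic receptors to fold, had 50 and 39.5. CACNG2, an auxiliary subunit of AMPA receptors, was at 48 or less in the GFP(+) library and at 64.0 in the GFP(−) library.

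Of the 31 scaffold genes, 4 (12.9%, against 16.9% of all genes) were at least 3-fold higher, a share below that of all genes. homer2 (ENSDARG00000059349), whose product binds metabotropic glutamate receptors, had 2727.0 normalized reads in the GFP(+) library and 123.5 in the GFP(−) library, a 22.1-fold difference. nlgn3b, a neuroligin, was 4.90-fold higher, with 841.0 and 171.5, DLG3 was 3.38-fold higher, with 275.5 and 81.5, and SHANK3 (ENSDARG00000063332) was 3.25-fold higher, with 141.5 and 43.5. The members of a family differed. shank3b had a GFP(+) value of at most 48 and 179.0 in the GFP(−) library and was at least 3.73-fold lower, and HOMER1 was at the floor in the GFP(+) library and at 60.5 in the GFP(−) library. DLG4, the best known scaffold of glutamate synapses, gave no direction. RAPSN and MUSK, which build the neuromuscular junction, were not analysed here.

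For synthesis of the transmitters, 0 of 13 genes were at least 3-fold higher, against 16.9% of all genes. With the bound of 48, 4 (30.8%, against 14.6% of all genes) were at least 3-fold lower. GAD1, which makes GABA, had 477.0 normalized reads in the GFP(−) library and was at least 9.94-fold lower. GAD2, of the same function, had 142.0 in the GFP(+) library and 683.5 in the GFP(−) library and was 4.81-fold lower. Of the genes of the synthesis of catecholamines, DBH was at least 3.09-fold lower. TH and DDC did not pass 3-fold, with bounds of 2.58-fold and 1.24-fold.

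Of 31 genes of transport and breakdown, 3 (9.68%, against 16.9% of all genes) were at least 3-fold higher. At least 3-fold lower were 13 (41.9%, against 16.4% of all genes). SLC17A8 (ENSDARG00000057728), the vesicular glutamate transporter of HCs, had 1248.5 normalized reads in the GFP(+) library and 30.0 in the GFP(−) library and was 41.6-fold higher, and it is also in the list of HC markers. slc6a11a (ENSDARG00000074002), a GABA transporter, had 314.5 and 23.0, and slc17a9a (ENSDARG00000042954), a vesicular nucleotide transporter, had 257.0 against the floor of 20. All 3 of these GFP(−) values were at or under 30.0. Those of slc6a11a and slc17a9a were below it, so that both genes had passed the filter of the table only through the GFP(+) library. Their passing of 3-fold was fixed by the filter and is no result of its own. Transporters of other glutamate neurons and of inhibitory neurons went the other way, to unlike degrees. SLC17A6 ENSDARG00000041150 was at least 10.7-fold lower, but the bound of the second SLC17A6 gene (ENSDARG00000001127) was 1.05-fold. SLC32A1, which fills vesicles with GABA and glycine, was at least 6.99-fold lower. SLC6A11 (ENSDARG00000087981) was 12.3-fold lower, with 86.0 in the GFP(+) library and 1062.0 in the GFP(−) library, and SLC1A3, the glutamate transporter of glia, at least 15.9-fold lower.

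**Figure D4:**
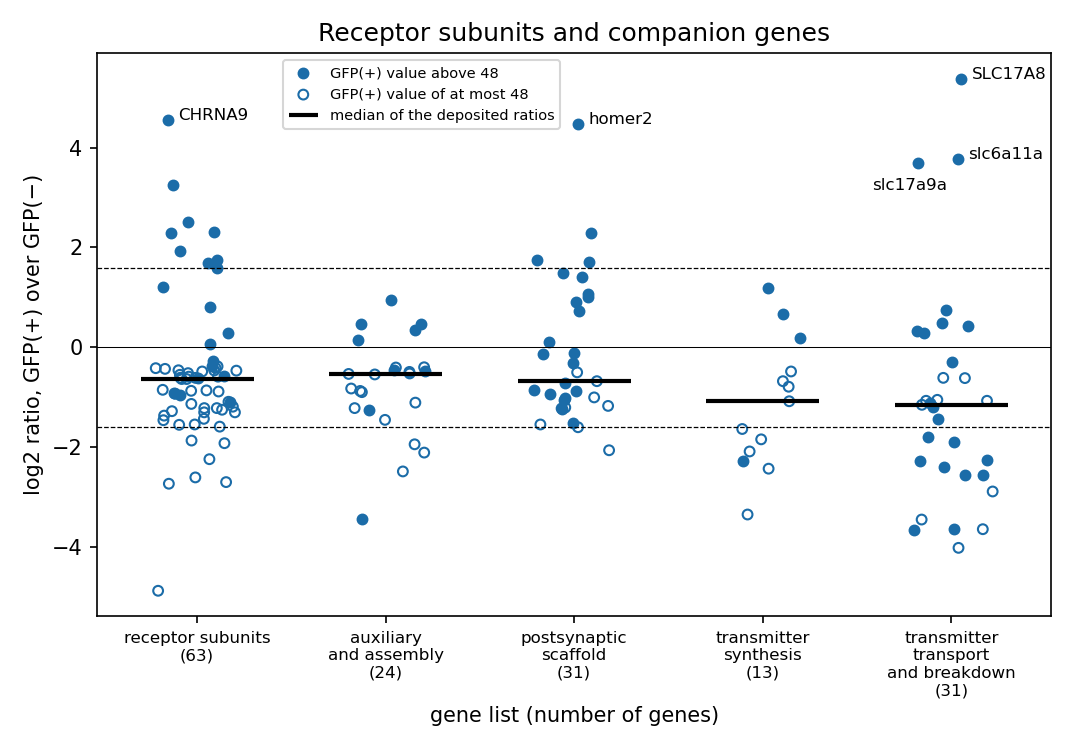
Log2 ratio of GFP(+) to GFP(−) expression (y axis) of the 63 receptor subunit genes and of 4 lists of companion genes (x axis), with 1 point per gene, filled where the GFP(+) value was above 48, and a bar at the median of the deposited ratios. Dashed lines mark 3-fold, and the highest points are CHRNA9, homer2, SLC17A8, slc6a11a and slc17a9a.

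The 7 genes that share only the prefixes were set apart from every count above. GRID2IP ENSDARG00000095603 had 681.0 normalized reads in the GFP(+) library and 112.0 in the GFP(−) library and was 6.08-fold higher, and the second GRID2IP gene gave no direction. HTRA1 ENSDARG00000014907, a secreted peptidase, was 8.53-fold lower, with 107.5 in the GFP(+) library and 917.0 in the GFP(−) library. The second HTRA1 gene was at least 4.38-fold lower and HTRA3 at least 8.44-fold. HTRA2 (ENSDARG00000069909), a mitochondrial peptidase, had 155.5 and 161.0. ENSDARG00000088743, called HTRA2 by its deposited symbol only, had 90.0 against the floor of 20. This gene had passed the filter of the table only through the GFP(+) library, which fixed its passing of 3-fold.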

How the data were processed

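Reads of the 2 libraries were aligned by the authors with TopHat to Zv9 and counted with HTSeq on Ensembl genes. The versions are not given in the sources used here. The deposited values are a signal per gene, namely read counts after quantile normalization with a floor of 20, for genes with at least 40 reads by the name of the table. They are not counts, and the depth and the precision it gives are unknown. Names came from the table of identifiers, which matched 14593 of 17668 genes, and from symbols deposited for 3758 genes. Of 154 identifiers named for a receptor subunit, 59 (38.3%) had values, against 50.0% of all 29201 named identifiers, and the others were not analysed here. A further 4 genes were found by deposited symbols.

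Ratios of GFP(+) to GFP(−) values were taken without a pseudocount. A fold against the floor is a lower bound, and for a GFP(+) value of up to 48 a fold lower was computed against 48. A gene symbol of a list matched with a final a or b in lower case. Genes given singly are those at least 3-fold higher, the lowest ratios above 48 and the lowest bounds, CHRNA9, the muscle nicotinic and the P2X genes, the highest GFP(+) value of each family, pairs that differed by 2 or more in log2 ratio, companion genes past 3-fold and a few set companions. The members and lists were chosen with earlier results of these data known. A few genes are counted but not reported singly here. Genome coordinates and sequences were not used here. The alternatives were pseudocounts of 20 and 100, a mean of at least 100, the bound of 48, both values above 48, centring, names from the table only, summed pairs, all prefixes and a 2-fold threshold. Counting was tested on shuffled values with known fold changes put in. That test had no noise, filter or tied range and so covered the arithmetic only. Python 3.11.15, numpy 2.4.6, pandas 2.3.3 and matplotlib 3.10.9 were used.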

Additional observations from a re-analysis of the deposited data

How the results depend on the processing

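Of 715 values recomputed under the alternatives, counts and log2 ratios together, 558 stayed within 1.5-fold and 157 moved by more. Many of the 558 could not move, so that their number is no measure of robustness. Alternatives that only drop or rename genes leave the ratio of each kept gene unchanged. The bound of 48 cannot change a gene above 48, and centring only took away the all-gene median of −0.10. After passing 3-fold, 0 changed direction, but the alternatives could not reverse so large a ratio of a single gene. Smaller values did change sign. With the bound of 48, the median log2 ratio went from −0.46 to 0.46 for the nicotinic genes. It went from −0.38 to 0.68 for the serotonin and from −0.55 to 0.41 for the P2X genes. The other family medians kept their sign with this bound. Under other alternatives, which left few genes, further medians changed sign. With both values above 48, kainate went from −0.66 to 0.42 and GABA-A from −1.17 to 0.49, over 2 genes each. With a mean of at least 100, glycine went from 0.37 to −0.96, over 1 gene. These are not all such changes. The number of receptor genes at least 3-fold higher, 9, was 3 with a pseudocount of 20, 1 with a pseudocount of 100 (CHRNA9), 5 of 15 genes with a mean of at least 100 and 2 of 12 genes with both values above 48 (GRIK1 and gabrb1). The 3 genes left by the pseudocount of 20, CHRNA9 among them, had passed the filter of the table only through the GFP(+) library. The number at least 3-fold lower, 8, was 5 with a pseudocount of 20, 1 with a pseudocount of 100 (GRIN1), 4 with a mean of at least 100 and 0 with both values above 48. The 0 was fixed in advance, as all 8 genes had a GFP(+) value of at most 48 and were dropped there. The number lower was 5 with GFP(+) values of up to 48 set to 48, 5 of 49 genes with pairs summed and 23 of 63 at a threshold of 2-fold. At 2-fold, 10 genes were higher. The 23 rest on deposited values, which at 48 or less in the GFP(+) library are no measurement of their own. Shares over all genes were taken only for the deposited values and the bound of 48 at 3-fold, so that the other counts stand without one. For the companion genes, 4 were higher and 12 lower with a pseudocount of 100, where their median was −0.28, and 3 were higher and 11 lower with both values above 48. No paired analysis was possible because each population has 1 library. For the same reason no library could be left out. The depth of the libraries is unknown and sets no interval on a ratio. Only 12 of the 63 receptor genes had both values above 48, and each of the others had 1 or both values at 48 or less.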

Other observations

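Receptors for other modulators, a list chosen after the values had been seen, gave 16 genes. Of these, 3 were at least 3-fold higher in the GFP(+) library and none was at least 3-fold lower (0 genes), against 16.9% and 16.4% of all genes. MTNR1A (ENSDARG00000055852), a melatonin receptor, had 97.5 normalized reads in the GFP(+) library against the floor of 20 in the GFP(−) library, at least 4.88-fold higher. This gene had passed the filter of the table only through the GFP(+) library, which fixed its passing of 3-fold. OPRL1 (ENSDARG00000071209), the nociceptin receptor, had 133.0 and 32.0. ADRB3, an adrenergic receptor, had 130.5 in the GFP(+) library and 337.0 in the GFP(−) library. These values are unreplicated too.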
